A study of Mus musculus with 12 samples.

Results

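The genes described here build motile cilia, and they were taken by name from the deposited gene tables of mouse brain tissue. They were the protein-coding genes named Foxj1, Ccdc39 or Ccdc40, or named Dnah, Dnai, Rsph, Cfap or Tekt followed by a digit. Of 25749 genes in the tables, 62 met that rule: 15 Dnah genes, 8 Rsph genes, 31 Cfap genes, 5 Tekt genes and the 3 genes named singly. No gene name began with Dnai and a digit. The rule uses names and no measured value.

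The tissue came from 12 male B6 mice aged 13 weeks, 4 in each of 3 groups: uninjured, injured, and injured with αLFA1/VLA4. The last group, called antibody-treated below, received antibodies against LFA1 and VLA4, which are integrins that leukocytes use to leave blood vessels, and the labels call this treatment continuous. The series title names the injury as cerebrovascular. A cube of brain tissue measuring 3 mm on each side was taken at day 20 after injury, and the labels state neither its place in the brain nor where the matching uninjured cube was cut. They name no control antibody in the injured group. Libraries were made from 500 ng of total RNA, and each library came from a different mouse.

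Motile cilia beat. In the brain they stand in tufts on ependymal cells, which line the ventricles, and their beating moves cerebrospinal fluid. Epithelial cells of the choroid plexus also carry cilia. The shaft of a motile cilium is a ring of doublet microtubules around a central pair: dynein arms on the doublets drive the beat, radial spokes join the doublets to the central apparatus, and tektins run along the doublet wall. FOXJ1 is the transcription factor that switches on the genes of motile cilia, and RFX factors act with it through a sequence called the X-box.

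The libraries held 13330379 to 16121577 exon reads. The 4 antibody-treated libraries were the shallowest, at 13330379 to 13917157. Mitochondrial genes took 10.3% to 12% of the reads in uninjured, 4.75% to 7.99% in injured and 8.83% to 11% in antibody-treated libraries. On the first principal component, which held 38.3% of the variance, uninjured replicate 1 and antibody-treated replicate 4 lay at the ends, and results that changed without this pair of end libraries are given with their values below. Neither the mitochondrial share nor the depth was tested for its part in the results.

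Most of these genes were present at low levels. The median gene had a mean of 1.03 TPM, a level corrected for gene length and library depth, over the 12 libraries. Of the 62, 9 genes reached 10 TPM or more, 31 reached 1 TPM or more, and 31 stayed under 1 TPM. Reads appeared in all 12 libraries for 56 genes, and reads across exon junctions, which come from spliced RNA, were found for 61. Cfap97d1 had 0 reads in every library.

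The 5 genes of highest level held 63.4% of the summed TPM. They were Cfap36 at 111 TPM, Cfap298 at 48.6, Cfap20 at 38.3, Rsph3b at 27.4 and Rsph9 at 23.6. CFAP36 binds the small GTPase ARL3, CFAP298 helps to assemble dynein arms, and CFAP20 sits at the inner junction of the doublet. RSPH3 and RSPH9 belong to the stalk and the head of the radial spoke. Foxj1 itself had a mean of 11.5 TPM, with libraries from 9.06 to 17.7.

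Levels also differed by role. The heavy chains of the dynein arms, which are very long proteins, had the lowest levels: of the outer arm genes Dnah9 was highest at 1.16 TPM and Dnah17 lowest at 0.0537, and of the inner arm genes Dnah1 led at 1.61. Ccdc39 and Ccdc40 encode partners in the ruler that sets the spacing of spokes and arms, and they differed in level, at 7.73 and 0.981 TPM. Tekt5 was the highest tektin at 12.6 TPM, followed by Tekt1 at 4.23 and Tekt2 at 1.26. The plot of levels by role shows this spread.

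**Figure D1:**
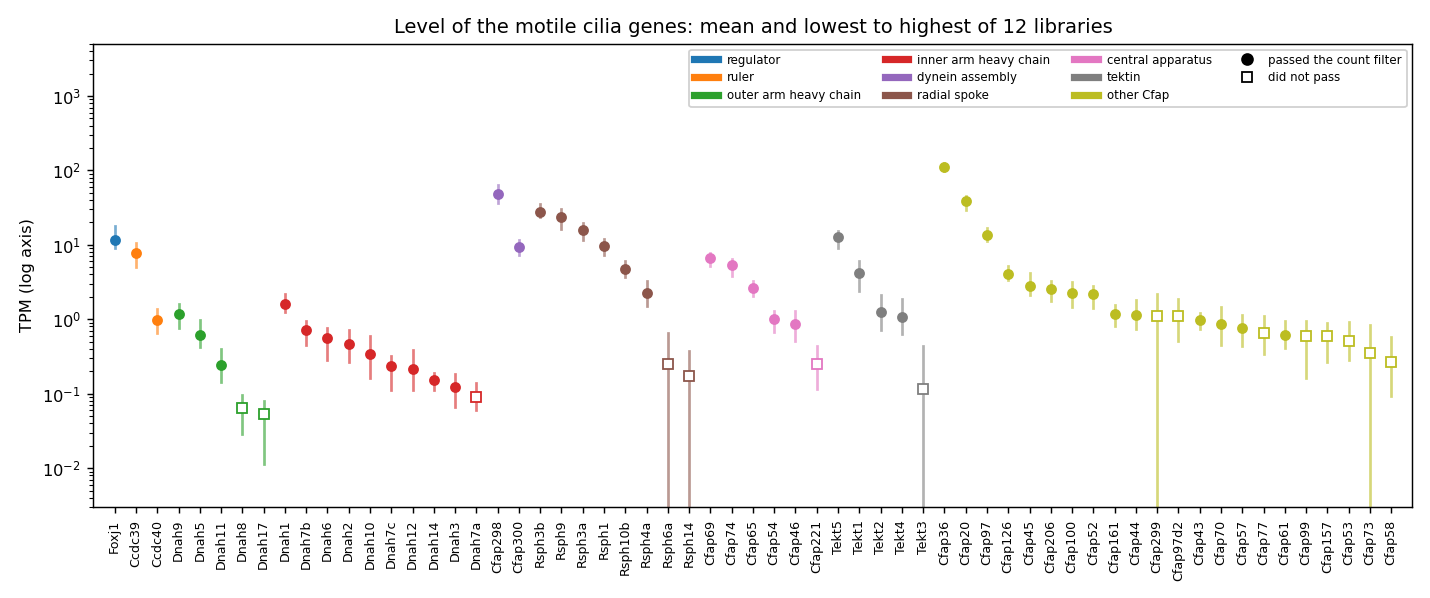
Mean TPM over 12 libraries (log axis) for the 61 motile cilia genes with reads, ordered by role. Vertical lines run from the lowest to the highest library and reach the lower edge where a library was listed at 0; open squares mark genes that did not pass the count filter. Cfap36 stands highest at 111 TPM, and the dynein heavy chains lie mostly under 1 TPM.

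The label of these genes as ependymal was set against markers outside the rule. All 12 ependyma markers were measured well enough to test. Their summed level was 43.5 to 54.0 CPM, a read count scaled to library depth, in uninjured libraries. Tm4sf1, Cd24a and Rarres2 held much of it, with uninjured means of 14.4, 10.6 and 6.41 CPM, beside 2.01 for Hdc and 0.866 for Mia. Whether other brain cells contributed to these markers was not tested. All 15 choroid plexus markers were also present, at a summed 1049 to 1356 CPM in the same libraries. Of 14 sperm markers, 6 were at 0 in every library (Akap4, Prm1, Prm2, Smcp, Tnp1 and Tnp2), and of 6 airway secretory markers, 3 were (Bpifa1, Muc5b and Scgb1a1). The sperm list summed to 2.41 to 3.02 CPM in uninjured libraries, and 2 of its genes, Acr and Zpbp, passed the count filter. The airway list summed to 0.130 to 0.202 CPM there, and 0 of its genes passed. Markers of ependyma and of choroid plexus epithelium were thus both present, and these bulk libraries do not assign a cilia gene to either. Some members of highest level, such as Cfap20 and Cfap36, are known to be expressed in cells without motile cilia too, so the set is called motile cilia genes here. In bulk tissue, fewer cells of a type and less RNA per cell cannot be told apart.

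Some genes are hard to count apart. Only 15.3% of the Rsph3b reads and 34.8% of the Rsph3a reads were unique to the gene, since the pair are near-identical copies, and the Dnah7 copies had 76.2% to 83.8% unique reads. Exons of 27 members overlap another gene. Most of the Cfap298 exon length, 53.6%, lies over antisense genes, and 16.9% of the Ccdc39 exon length lies over Ttc14. Whether the reads were counted by strand is not given in the sources used here.

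Promoters are printed for members whose levels changed between groups, to show whether they share the elements that FOXJ1 and RFX factors bind. They are from RefSeq on GRCm38.p6, 250 bases before to 50 after the gene start, read on the gene's strand. Of the 62 members, 50 had an entry. Those without an entry were Cfap157, Cfap299, Cfap53, Cfap54, Cfap65, Cfap73, Cfap97, Dnah3, Foxj1, Rsph1, Rsph10b and Rsph4a. Both strands were searched for an X-box (the arm GTNNCC, 0 to 3 bases, then the same arm reversed and complemented). They were also searched for the exact arm GTTGCC alone, which can lie inside an X-box, and for the forkhead core GTAAACA. Capitals mark matches. The first 4 genes had the smallest p among members with an entry, and Cfap298 and Rsph9 were added after the matches were seen, as the members of high level that hold an X-box.
Cfap300, chr9:8042826-8043125, minus strand: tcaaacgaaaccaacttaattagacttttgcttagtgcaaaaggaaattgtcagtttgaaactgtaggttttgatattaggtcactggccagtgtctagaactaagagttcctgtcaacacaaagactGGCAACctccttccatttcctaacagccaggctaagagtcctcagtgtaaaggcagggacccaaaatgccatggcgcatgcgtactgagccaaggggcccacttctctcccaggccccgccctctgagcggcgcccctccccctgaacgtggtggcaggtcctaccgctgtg
Cfap74, chr4:155408940-155409239, plus strand: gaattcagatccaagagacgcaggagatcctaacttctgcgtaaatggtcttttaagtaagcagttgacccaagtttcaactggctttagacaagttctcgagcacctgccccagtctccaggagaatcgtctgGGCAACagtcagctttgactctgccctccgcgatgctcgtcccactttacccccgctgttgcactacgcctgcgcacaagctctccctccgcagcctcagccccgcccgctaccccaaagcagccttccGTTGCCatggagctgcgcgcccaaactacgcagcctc
Cfap69, chr5:5664183-5664482, minus strand: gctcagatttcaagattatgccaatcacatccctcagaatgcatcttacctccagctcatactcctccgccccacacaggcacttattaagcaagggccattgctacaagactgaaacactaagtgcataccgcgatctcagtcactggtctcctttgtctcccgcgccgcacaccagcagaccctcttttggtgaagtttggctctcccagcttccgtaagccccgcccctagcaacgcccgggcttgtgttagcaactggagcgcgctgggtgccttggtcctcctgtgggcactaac
Dnah12, chr14:26691304-26691603, plus strand: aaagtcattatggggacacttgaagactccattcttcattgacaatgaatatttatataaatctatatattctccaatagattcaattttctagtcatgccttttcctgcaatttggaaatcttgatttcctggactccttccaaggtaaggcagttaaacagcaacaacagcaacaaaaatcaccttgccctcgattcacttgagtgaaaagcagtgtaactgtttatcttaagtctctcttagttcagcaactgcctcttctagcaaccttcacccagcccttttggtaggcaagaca
Cfap298, chr16:90934800-90935099, minus strand: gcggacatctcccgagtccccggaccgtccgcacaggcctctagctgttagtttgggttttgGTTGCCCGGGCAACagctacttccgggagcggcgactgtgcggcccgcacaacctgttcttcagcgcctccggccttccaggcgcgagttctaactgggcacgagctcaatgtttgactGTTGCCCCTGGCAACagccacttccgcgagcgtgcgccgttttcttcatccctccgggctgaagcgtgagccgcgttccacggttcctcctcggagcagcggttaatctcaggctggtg
Rsph9, chr17:46144151-46144450, minus strand: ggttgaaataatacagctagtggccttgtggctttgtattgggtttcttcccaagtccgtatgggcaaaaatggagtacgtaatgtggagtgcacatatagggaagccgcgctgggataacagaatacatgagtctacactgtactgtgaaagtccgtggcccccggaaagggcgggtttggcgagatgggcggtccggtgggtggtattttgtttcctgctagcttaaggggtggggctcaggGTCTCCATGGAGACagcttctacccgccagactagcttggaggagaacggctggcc

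Cfap298 carried 2 X-boxes, each made of both exact arms, at 188 and 69 bases before the RefSeq gene start. Rsph9 carried 1, at 6 bases before its RefSeq start. The gene starts used in the tables differ by 265 bases for Cfap298 and 16 for Rsph9, and counted from those the boxes lie 77, 196 and 10 bases after the start. Cfap300 held 1 single arm and Cfap74 held 2, while these letters did not occur in the windows of Cfap69 and Dnah12. The Dnah12 window lies 1720 bases from the gene start used in the tables.

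Over all members with an entry, an X-box was found in 8 of 50 genes (16%), against 4.38% of 27025 genes in the promoter table. The 8 were Cfap126, Cfap206, Cfap298, Cfap43, Cfap58, Cfap77, Rsph9 and Tekt4. The single arm occurred in 18 of 50 (36%), against 14.1% of all genes, and the forkhead core in 4 of 50 (8%), against 4.05%. A list of 57 other motile cilia genes with an entry held the X-box in 31.6%. Of the 8, 6 were tested, and none of the 6 passed the test in any comparison below. These shares are descriptions of letters in a window.

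Group differences were tested on exon read counts with the quasi-likelihood test of edgeR, fitted on all 14771 genes that passed a filter on low counts, with p-values adjusted by the Benjamini-Hochberg method over those genes. A gene is called changed at an adjusted p under 0.05. Of the 62 members, 46 passed the filter. The other 16 had 0 to 102 reads each over 12 libraries and were Cfap53, Cfap58, Cfap73, Cfap77, Cfap97d1, Cfap97d2, Cfap99, Cfap157, Cfap221, Cfap299, Dnah7a, Dnah8, Dnah17, Rsph6a, Rsph14 and Tekt3. The 3 comparisons share groups, so their values are set side by side and are not independent.

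Comparing injured with uninjured tissue asks how injured tissue differed at day 20. Foxj1 was higher in injured tissue, and Rsph4a, Cfap61 and Dnah12 were lower. These were 4 of 46 tested members (8.70%), against 23.0% of all tested genes (11.9% higher and 11% lower), and 42 of the 46 fold changes lay within 0.5 on the log2 scale. The median log2 fold change was 0.02, beside 0.03 over all genes, and members ranged from −0.82 to 0.52. The 95% interval stayed inside a 2-fold change either way for 42 members and inside a 1.5-fold change for 21. At an unadjusted p under 0.05 there were 7 members. Scaled by library size alone, 3 members were higher and 1 lower, in place of 1 and 3. With that scaling 28.1% of all tested genes were called, and 76% of those calls were higher.

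Members were also set beside genes of like read count. Of the 32 tested members with a mean under 100 reads, 3, 1 and 3 were called in injured against uninjured, antibody-treated against uninjured and antibody-treated against injured tissue, where 12.2%, 13.6% and 14% of all tested genes with so few reads were. Of the 14 members with a mean of 100 reads or more, 1, 1 and 2 were called, where 26.5%, 8.17% and 24.1% of such genes were. Foxj1 was the member called among the 14 in the first of these comparisons.

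Foxj1 lies on chromosome 11 at 116330704 to 116335399 (GRCm38, minus strand). Its normalised CPM was 11.2, 10.04, 10.9 and 9.66 in uninjured libraries, 12.5, 13.7, 12.6 and 16.2 in injured ones, and 13.6, 11, 11 and 11.8 in antibody-treated ones. Every injured library lay above every uninjured one, and the antibody-treated libraries overlapped the injured. Group means were 10.4 ± 0.700, 13.8 ± 1.71 and 11.9 ± 1.24 (SD, n = 4 each). The log2 fold change of injured over uninjured was 0.40 (SE 0.10, 95% interval 0.18 to 0.63, edgeR adjusted p = 0.0187).

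The Foxj1 call was kept in 10 of 12 runs that left out 1 library each. Without uninjured replicate 4 the log2 difference was 0.37 (edgeR adjusted p = 0.0584), and without injured replicate 4 it was 0.30 (adjusted p = 0.0663). When the trend of fold change with GC content and gene length was removed, the log2 difference was 0.07 (adjusted p = 0.695). Antibody-treated tissue differed from neither group by the test, at 0.18 against uninjured (adjusted p = 0.274) and −0.22 against injured (adjusted p = 0.152). Exon junction reads of Foxj1 summed to 39, 71 and 38 in the uninjured, injured and antibody-treated groups.

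Rsph4a encodes a protein of the radial spoke head and lies on chromosome 10 at 33905111 to 33916021 (plus strand). Its normalised CPM was 4.91, 2.93, 3.83 and 4.76 in uninjured libraries, 2.93, 2.18, 2.17 and 2.01 in injured ones, and 3.79, 3.27, 3.42 and 3.45 in antibody-treated ones. The lowest uninjured and the highest injured library both round to 2.93, so those groups met without overlapping. All 4 antibody-treated libraries stood above the injured and within the uninjured range.

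In injured tissue Rsph4a fell by 0.82 on the log2 scale (SE 0.18, edgeR adjusted p = 0.00905), from 4.11 ± 0.918 to 2.32 ± 0.412 CPM (SD, n = 4). This call was kept in each of the 12 runs that left out 1 library, where the highest adjusted p was 0.0321. It was also kept after correction for GC content and gene length (−0.65, adjusted p = 0.0180). In those 2 respects together it was alone among the calls on members in the 3 comparisons. Junction reads of Rsph4a summed to 45, 17 and 21 in the 3 groups, beside 246, 151 and 192 exon reads. These sums are not scaled to library depth, which was lowest in the antibody-treated group, and junction reads were not tested.

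Cfap61 encodes a part of the complex at the base of the radial spoke, and Dnah12 encodes an inner arm heavy chain. Cfap61 was 3.90, 3.06, 2.01 and 3.62 CPM in uninjured, 1.72, 1.62, 2.29 and 2.31 in injured, and 1.75, 2.49, 1.85 and 2.78 in antibody-treated libraries. Dnah12 was 1.95, 1.5, 0.940 and 1.54 CPM in uninjured, 0.955, 0.622, 1.02 and 0.769 in injured, and 0.656, 1.14, 0.713 and 0.600 in antibody-treated libraries. For both genes uninjured replicate 3 lay inside the injured range and the other 3 uninjured libraries lay above it.

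Cfap61 fell by 0.66 in injured tissue (SE 0.22, edgeR adjusted p = 0.0464) and Dnah12 by 0.81 (SE 0.26, edgeR adjusted p = 0.0422). The Cfap61 call was lost without any 1 of uninjured replicates 1, 2 and 4, the 4 injured replicates, or antibody-treated replicates 1 and 2, with adjusted p up to 0.143. The Dnah12 call was lost without any 1 of uninjured replicates 1, 2 and 4, injured replicates 2, 3 and 4, or antibody-treated replicate 1, with adjusted p up to 0.138. Without the pair of end libraries the edgeR adjusted p was 0.0970 for Cfap61 and 0.104 for Dnah12. With the GC and length trend removed the differences were −0.50 (edgeR adjusted p = 0.145) for Cfap61 and −0.41 (adjusted p = 0.246) for Dnah12.

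The ruler genes had differences of opposite sign, and neither passed the test. Ccdc39 was 13.0 ± 2.42 CPM in uninjured and 9.51 ± 1.42 in injured tissue (SD, n = 4), a log2 difference of −0.46 (edgeR adjusted p = 0.0634) over exons that partly lie across from Ttc14. The Ccdc39 difference was −0.13 (adjusted p = 0.495) with the GC and length trend removed. Ccdc40 was 1.79 ± 0.404 and 2.39 ± 0.349 CPM, a difference of 0.42 (edgeR adjusted p = 0.0984). For each gene the libraries of the groups overlapped. Ccdc39 passed the test when uninjured replicate 3 (adjusted p = 0.0352), injured replicate 1 (0.0338), or antibody-treated replicate 3 (0.0469) or 4 (0.0286) was left out. It also passed in the DESeq2 Wald test (adjusted p = 0.0371) and in edgeR fitted on the compared groups alone (adjusted p = 0.0274). The antibody-treated means were 11.1 ± 2.32 CPM for Ccdc39 and 1.94 ± 0.194 for Ccdc40 (n = 4).

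Of 12 tested dynein heavy chains, 8 had a fold change below 0 in injured tissue, with a median of −0.22 and 1 call. All 3 tested outer arm genes, Dnah9, Dnah5 and Dnah11, lay below 0, at −0.29, −0.43 and −0.43, and none passed the test. With the GC and length trend removed the median of the 12 was 0.04, and 5 of 12 lay below 0. The 3 outer arm genes all stayed below 0 with that trend removed, at a median of −0.20. The 4 tested tektins all lay above 0, with a median of 0.24, which was −0.01 with that trend removed. None of the tektins passed this test.

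The genes of highest level did not pass the test in injured tissue. Cfap36 was 92.7 ± 8.30 CPM in uninjured and 88.0 ± 9.87 in injured tissue (SD, n = 4), a log2 difference of −0.08 with a 95% interval of −0.31 to 0.16. The interval was −0.10 to 0.40 for Cfap20, −0.02 to 0.50 for Cfap298 and −0.14 to 0.59 for Rsph9. None of these 4 intervals reached a 2-fold change.

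Comparing antibody-treated with uninjured tissue shows how far treated injured tissue stood from uninjured tissue. Cfap300 was higher and Cfap74 lower, which makes 2 of 46 members (4.35%), against 9.53% of all tested genes (6.3% higher and 3.22% lower). The median log2 fold change was −0.06, beside 0.01 over all genes, with a range from −0.92 to 0.62, and 10 members had an unadjusted p under 0.05. Scaled by library size alone, 2 members were higher and 0 lower, where 86.3% of the calls over all tested genes were higher. Groups of libraries did not overlap for 5 members, against 15.6% of all tested genes, and besides the 2 called these were Cfap45, Cfap65 and Cfap161. In the injured against uninjured comparison the 2 without overlap were Foxj1 and Rsph4a, against 30.3% of all tested genes.

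Cfap300 takes part in assembling dynein arms and lies on chromosome 9 at 8021672 to 8042823 (minus strand). Its normalised CPM was 5.85, 5.80, 5.10 and 5.10 in uninjured libraries, 6.05, 5.04, 5.30 and 5.27 in injured ones, and 7.66, 6.40, 7.13 and 6.61 in antibody-treated ones. The uninjured and injured libraries covered the same range, and the 4 antibody-treated libraries lay above both. The log2 difference was 0.35 against uninjured (SE 0.10, edgeR adjusted p = 0.0474) and 0.36 against injured (SE 0.10, adjusted p = 0.0227).

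Of the runs that left out 1 library, only the one without injured replicate 1 kept the Cfap300 call against uninjured, and in the others the adjusted p reached 0.143. The call against injured was lost without injured replicate 2, injured replicate 4 or antibody-treated replicate 1, with adjusted p up to 0.0710. With the GC and length trend removed the differences were 0.18 (edgeR adjusted p = 0.322) and 0.07 (adjusted p = 0.738).

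Cfap74 encodes a protein of the central apparatus and lies on chromosome 4 at 155409190 to 155466823 (plus strand). Its normalised CPM was 17.6, 18.2, 15.6 and 15.1 in uninjured libraries, 14.1, 17.7, 16.4 and 16.5 in injured ones, and 13.0, 14.3, 13.5 and 12.2 in antibody-treated ones. The antibody-treated libraries lay below all uninjured ones, and replicate 2 of them overlapped the lowest injured library. Cfap74 fell by 0.33 on the log2 scale against uninjured (SE 0.09, edgeR adjusted p = 0.0437) and by 0.29 against injured (SE 0.09, adjusted p = 0.0406). Of its reads, 93.9% were unique to it, and 4.55% of its exon length lies over an antisense gene.

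The Cfap74 call against uninjured was lost without any 1 of uninjured replicates 1, 2 and 3, injured replicate 3, or antibody-treated replicates 1 and 4, with adjusted p up to 0.123. The call against injured was lost without any 1 of injured replicates 2, 3 and 4 or of the 4 antibody-treated replicates, with adjusted p up to 0.11. Without the pair of end libraries the edgeR adjusted p was 0.171 against uninjured and 0.0722 against injured, and for Cfap300 against uninjured it was 0.1. The Cfap74 differences were −0.18 against uninjured (edgeR adjusted p = 0.226) and −0.18 against injured (adjusted p = 0.246) once the GC and length trend was removed.

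Dnah12 and Tekt1 fell just short of passing the test against uninjured tissue. Dnah12 in antibody-treated tissue was 0.777 ± 0.245 CPM against 1.48 ± 0.415 (SD, n = 4), a log2 difference of −0.92 (edgeR adjusted p = 0.0525). Tekt1 was 3.60 ± 0.541 against 2.34 ± 0.663 CPM, a difference of 0.62 (edgeR adjusted p = 0.0702). Dnah12 passed without uninjured replicate 3 (adjusted p = 0.0235) or antibody-treated replicate 2 (0.0325), and Tekt1 without uninjured replicate 3 (0.0229) or antibody-treated replicate 3 (0.0321). Dnah12 passed too on unique exon reads (edgeR adjusted p = 0.0493), and Tekt1 when scaled by library size alone (edgeR adjusted p = 0.0487). Leaving out antibody-treated replicate 3 also brought Cfap20 (0.0298), Cfap44 (0.0415) and Dnah9 (0.0497) past the test. The dynein heavy chains had a median of −0.19, with 9 of 12 below 0, and 0.04 after the GC and length correction.

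**Figure D2:**
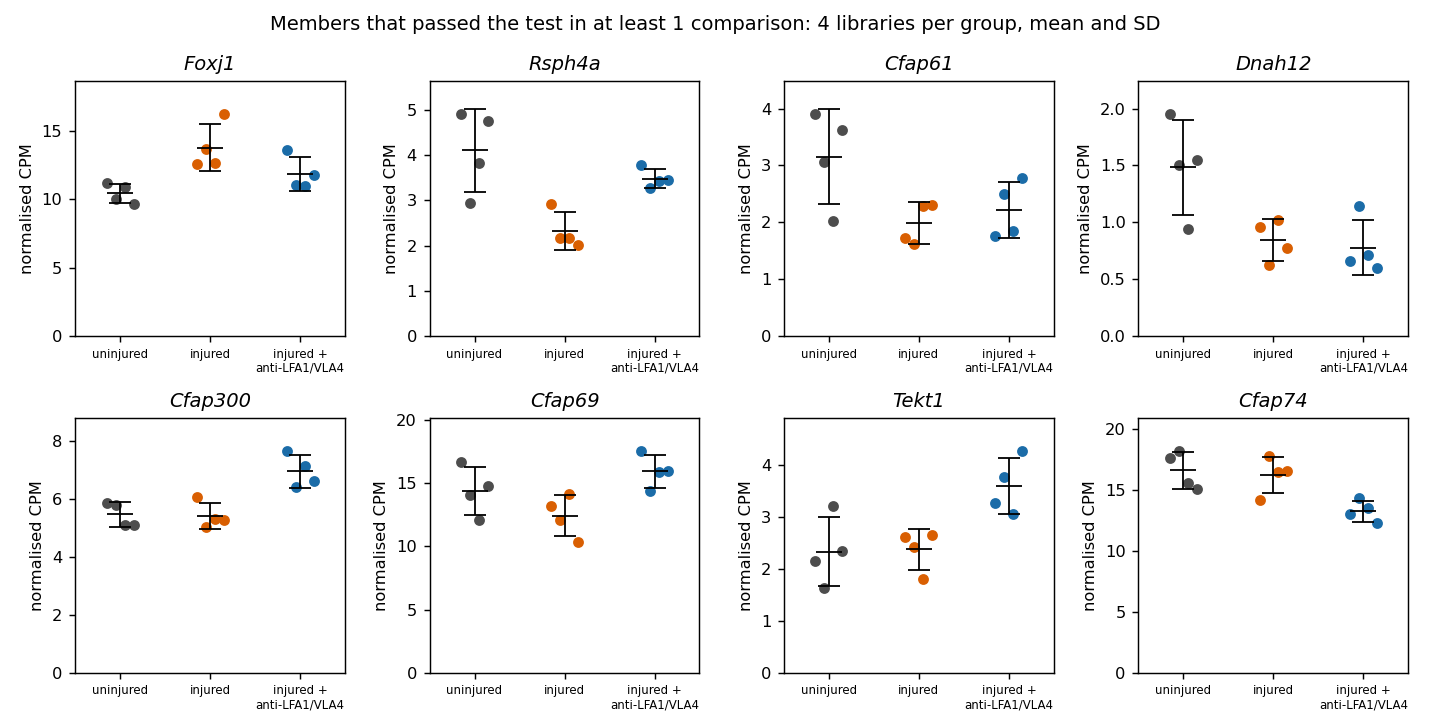
Normalised CPM of the 8 members that passed the test in at least 1 comparison; points are the 4 libraries of each group, black marks the mean and SD, and every axis starts at 0. Rsph4a lies lowest in injured libraries (2.01 to 2.93), and Cfap300 and Tekt1 lie highest in antibody-treated ones.

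Comparing antibody-treated with injured tissue sets injured tissue with the antibodies beside injured tissue without them. Cfap69, Cfap300, Rsph4a and Tekt1 were higher in antibody-treated tissue and Cfap74 was lower. These were 5 of 46 members (10.9%), against 21.6% of all tested genes (10.9% higher and 10.7% lower). The median log2 fold change was 0.01, the same as over all genes to 2 decimals, and the range ran from −0.56 to 0.60. The unadjusted p was under 0.05 for 8 members. Scaled by library size alone, 3 members were higher and 2 lower, where 43.8% of the calls over all tested genes were higher. Libraries of the groups did not overlap for the 4 higher genes, against 22.0% of all tested genes.

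Rsph4a rose by 0.59 on the log2 scale over injured tissue (SE 0.18, edgeR adjusted p = 0.0346), to 3.48 ± 0.219 CPM (SD, n = 4). Against uninjured tissue it stood at −0.24 (95% interval −0.60 to 0.13, adjusted p = 0.376). The rise was lost without any 1 of injured replicates 2, 3 and 4 or antibody-treated replicates 1 and 2, with adjusted p up to 0.0954. With the GC and length trend removed it was 0.46 (edgeR adjusted p = 0.0773).

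Tekt1 encodes a filament protein of the doublet wall and lies on chromosome 11 at 72344722 to 72362442 (minus strand). Its normalised CPM was 2.15, 1.63, 3.22 and 2.35 in uninjured libraries, 2.61, 2.43, 1.81 and 2.66 in injured ones, and 3.28, 3.77, 3.07 and 4.28 in antibody-treated ones. The antibody-treated libraries lay above all injured ones, while uninjured replicate 3 fell among them. The log2 difference from injured was 0.60 (SE 0.20, edgeR adjusted p = 0.0464), and 0.57 after the GC and length correction (adjusted p = 0.0386).

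The Tekt1 call was lost without any 1 of uninjured replicates 1 and 4, injured replicates 2, 3 and 4, or antibody-treated replicates 1, 2 and 4, with adjusted p up to 0.109. Without the pair of end libraries its edgeR adjusted p was 0.0964. Of the other tested tektins, Tekt2 differed by 0.09, Tekt4 by −0.23 (edgeR adjusted p = 0.632) and Tekt5 by −0.05, and none of the 3 passed the test.

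Cfap69 encodes a protein of the central apparatus and lies on chromosome 5 at 5579278 to 5664239 (minus strand). Its normalised CPM was 16.7, 14.1, 12.1 and 14.8 in uninjured libraries, 13.2, 12.1, 14.2 and 10.4 in injured ones, and 17.6, 14.4, 15.9 and 16.0 in antibody-treated ones. The antibody-treated libraries lay above the injured by a narrow margin and overlapped the uninjured. The log2 difference from injured was 0.36 (SE 0.12, edgeR adjusted p = 0.0423), and 0.14 after the GC and length correction (adjusted p = 0.363). The call was lost without any 1 of uninjured replicates 2 and 4, injured replicates 2 and 4, or antibody-treated replicates 1 and 4, with adjusted p up to 0.114.

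Within the central apparatus the calls were in both directions, Cfap69 up and Cfap74 down, and both were lost with the GC and length trend removed. The other tested members of that role, Cfap46, Cfap54 and Cfap65, did not pass. Cfap46 stood at −0.56 (edgeR adjusted p = 0.0525) and passed without uninjured replicate 1 (0.0404) or 3 (0.0419), injured replicate 2 (0.0419) or antibody-treated replicate 3 (0.0290). It passed too on unique exon reads (edgeR adjusted p = 0.0486) and when scaled by library size alone (edgeR adjusted p = 0.0437). Among the spoke genes Rsph3b differed by −0.11 (edgeR adjusted p = 0.359) on all exon reads and by −0.57 (adjusted p = 0.00576) on the 15.3% of its reads that were unique. Its copy Rsph3a differed by −0.10 and by −0.29 (adjusted p = 0.127) on the same 2 kinds of read.

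**Figure D3:**
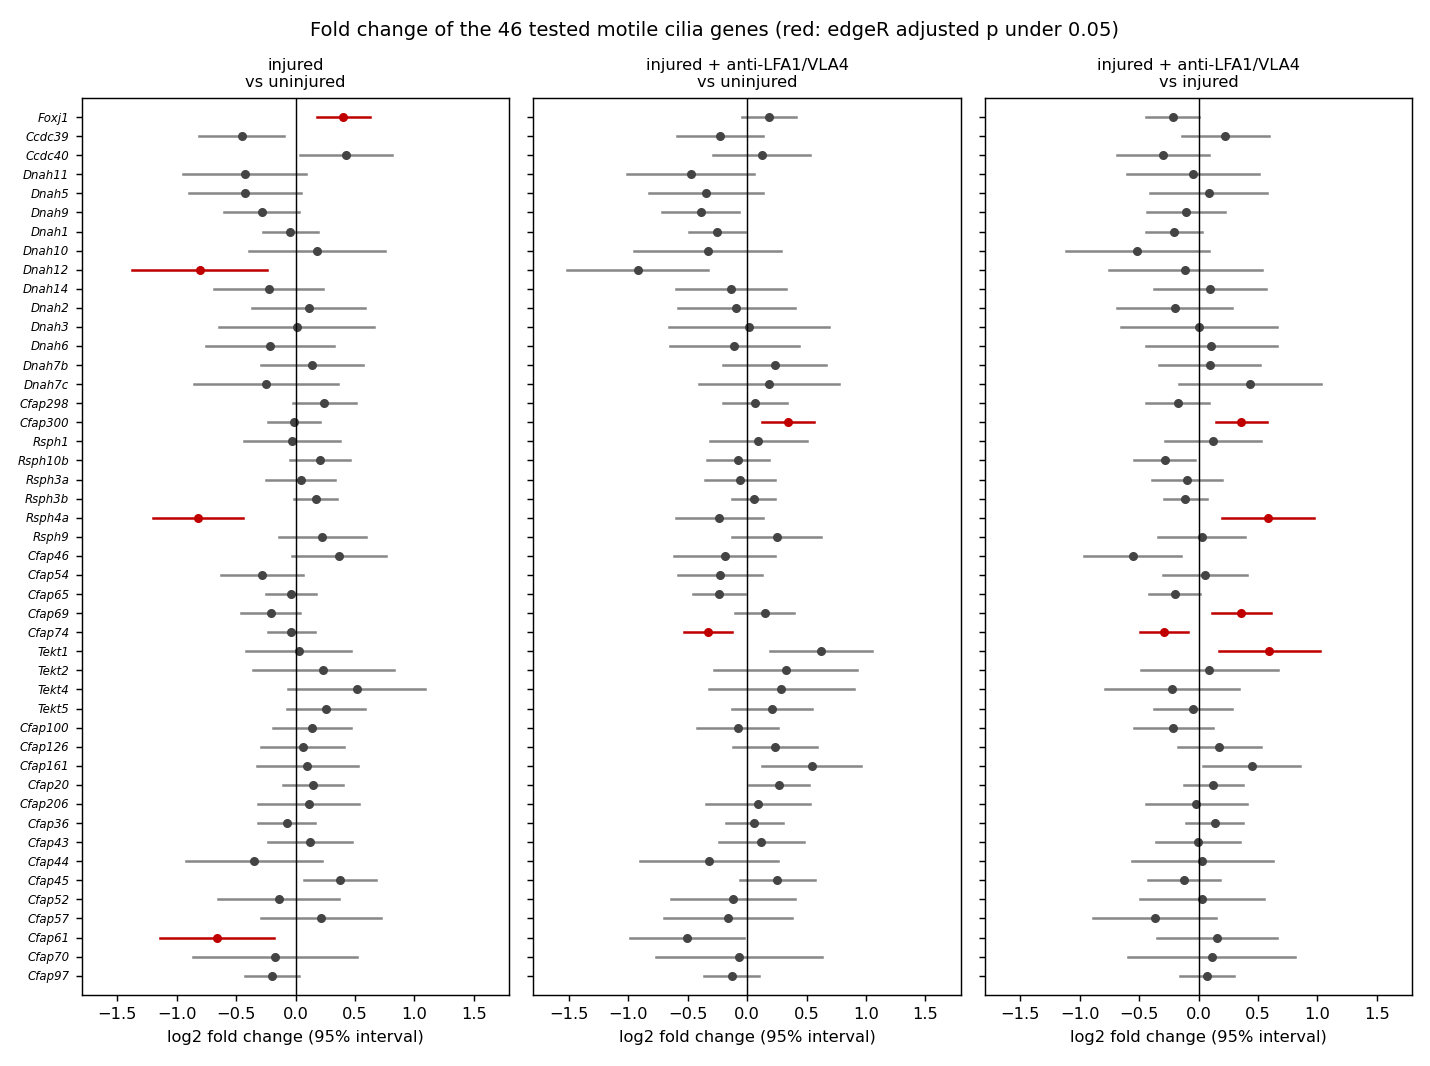
Fitted log2 fold change (horizontal axis) with its 95% interval for the 46 tested members, ordered by role, in the 3 comparisons; red marks an edgeR adjusted p under 0.05. Most intervals cross 0, and 4, 2 and 5 genes are red from left to right.

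Over the 3 comparisons there were 11 calls in 8 members, and 38 tested members were called in none. With the GC and length trend removed, 2 of the 11 calls were kept, Rsph4a in injured against uninjured tissue and Tekt1 in antibody-treated against injured tissue. Over all tested genes 13.8%, 17.6% and 18% were called with that trend removed, in place of 23.0%, 9.53% and 21.6%.

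Other genes of motile cilia, listed apart from these 62, were measured for comparison. Of 63 tested, 1 was higher and 3 lower in injured than in uninjured tissue, 3 higher in antibody-treated than in uninjured, and 8 higher and 1 lower in antibody-treated than in injured. Over all tested genes the shares called were 23.0%, 9.53% and 21.6% in the same order, above the list's in each. Efcab1, a calcium-binding protein of motile cilia, fell by 0.63 in injured tissue (edgeR adjusted p = 0.00344) and rose by 0.76 from injured to antibody-treated (adjusted p = 0.000522). Its means were 9.08 ± 0.642, 5.89 ± 0.894 and 9.997 ± 0.257 CPM in the 3 groups (SD, n = 4). Efcab1 and Rsph4a both had their lowest mean in injured tissue. Meig1 rose by 0.97 and Mlf1 by 0.84 from injured to antibody-treated tissue (edgeR adjusted p = 0.00247 and 0.00563).

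Among 16 tested regulators of ciliated cells, 1 was higher and 2 lower in injured than in uninjured tissue, and 2 were higher and 1 lower in antibody-treated than in injured, where 23.0% and 21.6% of all tested genes were called. Rfx1 rose by 0.43 while Rfx3 fell by 0.65 and Rfx7 by 0.54 in injured tissue (edgeR adjusted p = 0.00961, 0.0358 and 0.0401). All 3 encode factors of the family that binds the X-box, and exons of Rfx1 and Rfx7 overlap other genes. From injured to antibody-treated tissue, Gmnc, which commits cells to many cilia, rose by 1.21 (edgeR adjusted p = 0.0160). Its means were 0.574 ± 0.316 and 1.33 ± 0.294 CPM (n = 4). E2f5, whose exons also overlap another gene, rose by 0.69 (edgeR adjusted p = 0.00257) and Rfx1 fell by 0.28 (adjusted p = 0.0466).

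Markers of the cells that carry cilia were measured in the same libraries. Of 12 ependyma markers, 1 (Cd24a) was lower in injured than in uninjured tissue, 2 (Mia and Tm4sf1) were higher in antibody-treated than in uninjured, and 1 (Cd24a) was higher in antibody-treated than in injured. The shares called over all tested genes were 23.0%, 9.53% and 21.6% in the same order. Summed, the 12 markers were at 43.5 to 54.0 CPM in uninjured, 48.2 to 53.7 in injured and 50.2 to 74.5 in antibody-treated libraries. The ranges overlapped, with the highest values in antibody-treated tissue.

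Choroid plexus markers were called in larger number, where 23.0%, 9.53% and 21.6% of all tested genes were called in the 3 comparisons. Of 15 tested, 10 were lower in injured than in uninjured tissue with a median log2 difference of −0.49, 3 were higher in antibody-treated than in uninjured, and all 15 were higher in antibody-treated than in injured with a median of 0.74. Their summed level was 1049 to 1356 CPM in uninjured, 838 to 1135 in injured and 1214 to 1950 in antibody-treated libraries, and none of the 15 was at 0. Rsph4a, Cfap69, Cfap300 and Tekt1 were higher where this list was higher, in antibody-treated against injured tissue, while Cfap74 was lower there and the members' median was 0.01. In injured against uninjured tissue, where the plexus list was lower, Rsph4a, Cfap61 and Dnah12 were lower and Foxj1 was higher. The part of choroid plexus tissue in those results was not tested.

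The summed level of the 62 members spanned 400 to 424 CPM in uninjured, 387 to 426 in injured and 385 to 446 in antibody-treated libraries, ranges that overlap throughout. A few genes weigh heavily in this sum. Mean CPM in the uninjured, injured and antibody-treated groups was 92.7, 88.0 and 96.7 for Cfap36 and 39.5, 43.7 and 47.7 for Cfap20. Markers of brain regions and other tissues also differed. In injured against uninjured tissue, 7 of 15 striatum markers were lower, and 7 of 15 thalamus markers were higher and 1 lower. In antibody-treated against injured tissue, 5 of 15 striatum markers were higher. Among all tested genes, 23.0%, 9.53% and 21.6% were called in the 3 comparisons, in the order used above. Of 8 tested hypothalamus markers, 3 were higher in antibody-treated tissue than in each other group. Among them Pmch had a mean of 10.1 ± 2.12 CPM in antibody-treated tissue, against 0.249 ± 0.145 in uninjured and 0.387 ± 0.149 in injured tissue (SD, n = 4), and its exons overlap Parpbp. Hcrt was 2.97 ± 0.942, 0.0504 ± 0.0643 and 0.0765 ± 0.059 CPM in the same order. Skeletal muscle markers were higher in antibody-treated than in injured tissue for 12 of 15, with a median log2 difference of 3.76. Their summed level was 218 to 313 against 101 to 135 CPM, and Pvalb alone had a mean of 78.0 ± 11.6 CPM in injured tissue (SD, n = 4). The part of tissue composition in the results on cilia genes was not tested.

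**Figure D4:**
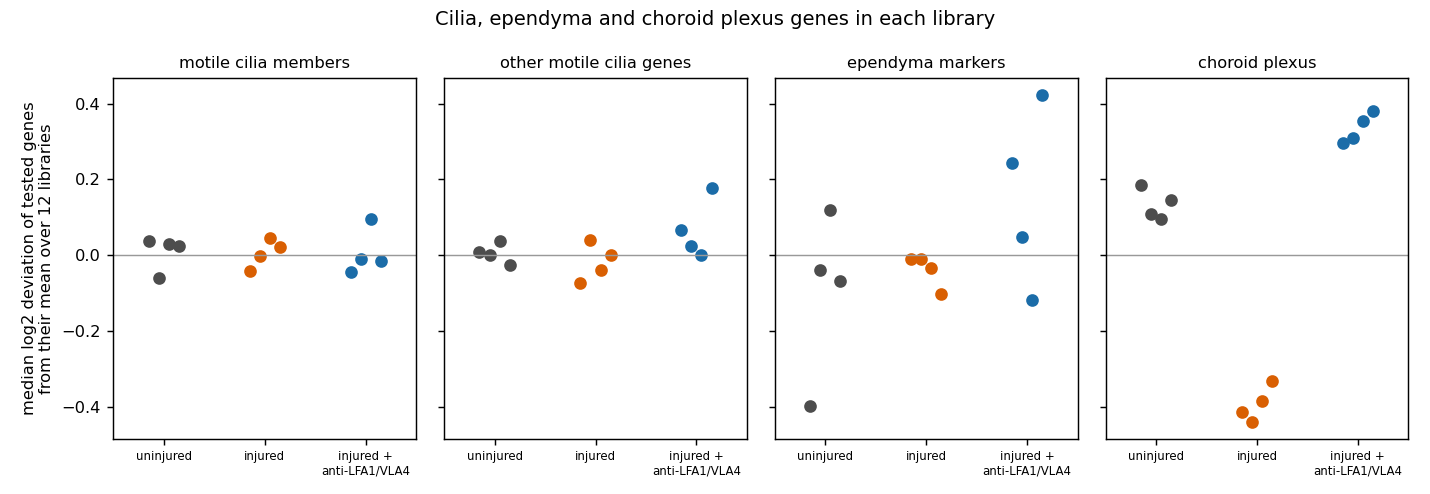
Median log2 deviation of the tested genes of 4 lists from their mean over 12 libraries (vertical axis, on CPM with 0.1 added), 1 point per library. The motile cilia members stay between −0.06 and 0.10 in every library, while choroid plexus markers lie between −0.44 and −0.33 in injured and between 0.30 and 0.38 in antibody-treated libraries.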

How the data were processed

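RNA of 12 libraries was sequenced by the authors from TruSeq Stranded Total RNA libraries. GRCm38, Trimmomatic 0.39, FastQC 0.11.8 and CASAVA 1.8.2 appear in the submitters' processing notes. Which aligner and counting tool were used is not given in the sources used here. Each deposited table gives, per the file headers, total, unique, junction and intron read counts per gene, with TPM and RPKM computed by the authors, and the RPKM were not used. The 25749 gene IDs matched GENCODE M21. The members and gene lists were chosen with earlier results of these data known. Members named are those called in any comparison, Foxj1, Ccdc39 and Ccdc40, and the 3 of highest TPM in each family, and of other lists the 3 of smallest p per comparison; Cfap44, Cfap45, Cfap46, Cfap54, Cfap65, Cfap99, Cfap161, Dnah5, Dnah11 and Tekt4 were named after their values were seen.

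Counts were fitted with edgeR 4.0.16 (R 4.3.3) on all 12 libraries by group, with TMM factors and filterByExpr, two-sided, after a check on simulated data. CPM are exon reads over the TMM-scaled library size. DESeq2 1.42.0, limma 3.58.1, other filters and scalings, a GC and length correction (mgcv 1.9.3) and leaving out each library were alternatives.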

Additional observations from a re-analysis of the deposited data

How the results depend on the processing

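The counts of called members were small and moved with the processing, and 25 alternatives were run for each comparison. No alternative reversed the direction of a called gene. The counts below are higher and lower members, in the order injured against uninjured, antibody-treated against uninjured, and antibody-treated against injured. In edgeR they were 1 and 3, 1 and 1, and 4 and 1. Scaling by library size alone gave 3 and 1, 2 and 0, and 3 and 2, with medians of 0.0981 and −0.009 in the first 2 comparisons. Under that scaling the medians over all tested genes also moved up, to 0.107 and 0.064 in those 2 comparisons. A fit with the replicate number as a block gave 1 and 1, 0 and 0, and 2 and 0. Deviations of same-numbered libraries correlated at −0.53 to 0.43, and 0 libraries correlated best with their own number. The labels do not say that the number pairs mice, and a shared batch was not tested. A correction for GC content and gene length gave 0 and 1, 1 and 0, and 1 and 0, where 13.8%, 17.6% and 18% of all tested genes were called. The 1 higher in the second was Dnah7b (0.48, edgeR adjusted p = 0.0337), which was not called without the correction. Neither call of the main fit in the second comparison was kept. A test against a fold of 1.2 called 0 in each direction of all 3 comparisons. Fitting only the groups compared gave 0 and 0 in the second and 2 and 0 in the third comparison. With no filter the second had 0 and 0 and the third 0 lower. DESeq2 size factors and the DESeq2 Wald test each gave 0 higher in the second. Unique reads gave 2 lower in the second and 3 lower in the third. Without uninjured replicate 1 and antibody-treated replicate 4 together, a choice made after seeing the data, there were 1 lower in the first, 0 and 0 in the second and 0 lower in the third.

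Leaving out 1 library at a time gave 0 to 2 higher and 1 to 4 lower in the first comparison, 0 to 2 higher and 0 to 3 lower in the second, and 0 to 4 higher and 0 to 2 lower in the third. Cfap45 was called in the first only by edgeR without injured replicate 1 (0.45, adjusted p = 0.0303) or with library size alone, and Cfap99, which did not pass the filter on all 12 libraries, in the third without antibody-treated replicate 1 (−1.22, adjusted p = 0.0440). With 1 library left out the medians ran from −0.0336 to 0.0253, −0.082 to 0.0416 and −0.0283 to 0.0699. Over all genes the share called ranged over the alternatives from 1.43% to 32.8%, 3.19% to 26.7% and 2.95% to 27.5%. The cause of these changes was not tested. Of the 62 members, 48 had a mean under 100 reads per library.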
